A study of Arabidopsis thaliana with 27 samples.

Results

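Chloroplast- and mitochondrion-encoded genes are the genes that the organelles of a plant cell carry on their own genomes. Their identifiers start with ATCG (chloroplast) or ATMG (mitochondrion), and every gene with such an identifier was taken, whatever its counts. This gave 279 of the 33602 genes counted, 133 of the chloroplast and 146 of the mitochondrion. The choice used no measured value. For 42 members, 14 of the chloroplast and 28 of the mitochondrion, an annotation note or a supplementary sheet gave a name, and the other members are given by identifier only.

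The chloroplast genome encodes core subunits of both photosystems, of the cytochrome b6f complex, of ATP synthase and of an NADH dehydrogenase-like complex, the large subunit of Rubisco, and part of the organelle's own ribosomes. The mitochondrial genome encodes rRNA, some ribosomal proteins, and a few subunits of the respiratory chain and of ATP synthase. Chloroplast genes are transcribed by a polymerase that is itself chloroplast-encoded and takes its sigma factors from the nucleus, and by phage-type polymerases encoded in the nucleus, which also transcribe mitochondrial genes. The libraries were made from poly(A)-selected RNA. In plant organelles a poly(A) tail is known to mark RNA for degradation, and most stable organelle transcripts lack one, so that the counts cover the organelle RNA that passed this selection.

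The 27 libraries are 9 groups of 3, all from Arabidopsis thaliana grown in constant white light of 50 µE. Leaf protoplasts came from 17-d-old plants and were sorted for chlorophyll fluorescence. IQD22pro::GUS-mCit plants carry a reporter driven by the IQD22 promoter in 1 representative line. Their palisade cells were the mCit-positive cells and their reference cells the mCit-negative cells, which hold spongy mesophyll, bundle sheath and other green cells. These 2 populations were sorted without transcription inhibitors (pools A to C), with actinomycin D and cordycepin during protoplasting (pools G to I), and with these inhibitors after 2 h of high light at 300 µE (pools J to L). JR11-2 is a GAL4 enhancer trap line in the Col-0 background whose GFP is highest in the lower spongy mesophyll, sorted without inhibitors (pools D to F). Its GFP-negative cells are labelled palisade but hold all green cells without GFP, and its GFP-positive cells are labelled reference. The root group was total Col-0 root protoplasts without inhibitors, which were not sorted for chlorophyll and share no pool with leaves. A pool is the protoplasts of many leaves. Pool letters were given by replicate number, and the palisade and reference libraries of a pool were taken to come from the same leaves.

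The gene counts of a library, the sum over all genes, ranged from 15074702 to 38792923. A level is given in CPM, the count of a gene as a share of all gene counts of its library, scaled to 1000000, so that 3 counts correspond to 0.0773 to 0.199 CPM. The mesophyll markers RBCS1A, LHCB1.3 and CA1 summed to 14678 to 55483 CPM in leaf and to 29.2 to 31.6 in root. The root markers summed to 11.1 to 44.7 in leaf and to 194 to 311 in root, and the epidermis markers to 0.976 to 8.27 in leaf and 52.0 to 72.9 in root. The reference markers CORI3, THA2 and YAB5 summed to 7.07 to 31.2 in IQD22 palisade and to 363 to 2111 in IQD22 reference libraries, and IQD22 itself was higher in the palisade than in the reference libraries of each IQD22 set. Reads that aligned to more than 1 place, which the counter left out, were 4.33% to 9.75% of the reads listed. Of the libraries, 3 stood apart in organelle counts, namely the reference libraries of pools B and L and root library 3. The nuclear rRNA gene AT3G41768 was also highest there, with 125 CPM in pool B reference against 14.5 to 35.1 in the other IQD22 libraries without inhibitors. It had 158 in pool L reference against 32.1 to 88.3 in the other libraries with inhibitors, and 882 in root library 3 against 305 and 514. The pool H palisade library also had the most chloroplast counts of its set, 449 CPM against 161 to 297 in the other libraries with inhibitors at low light. The part of rRNA carry-over in the organelle values was not tested. Share ratios that moved without pools B and L or root library 3 are given both ways, and none was computed without pool H alone.

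Organelle-encoded genes made up a very small share of each library. Chloroplast members held 128 to 509 CPM in the 24 leaf libraries, with a median of 231, and 5.36, 7.38 and 15.6 CPM in the 3 root libraries. Mitochondrial members held 44.9 to 273 CPM in leaf, with a median of 103, and 97.6, 101 and 498 CPM in root. The 95% Wilson interval of a chloroplast share spanned 1.91% to 13.6% of its value on each side, which covers counting error only, so that the spread among leaf libraries was larger than counting error. Chloroplast counts were 0.79 to 4.98 times the mitochondrial counts in leaf and 0.0314 to 0.0728 times in root.

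**Figure D1:**
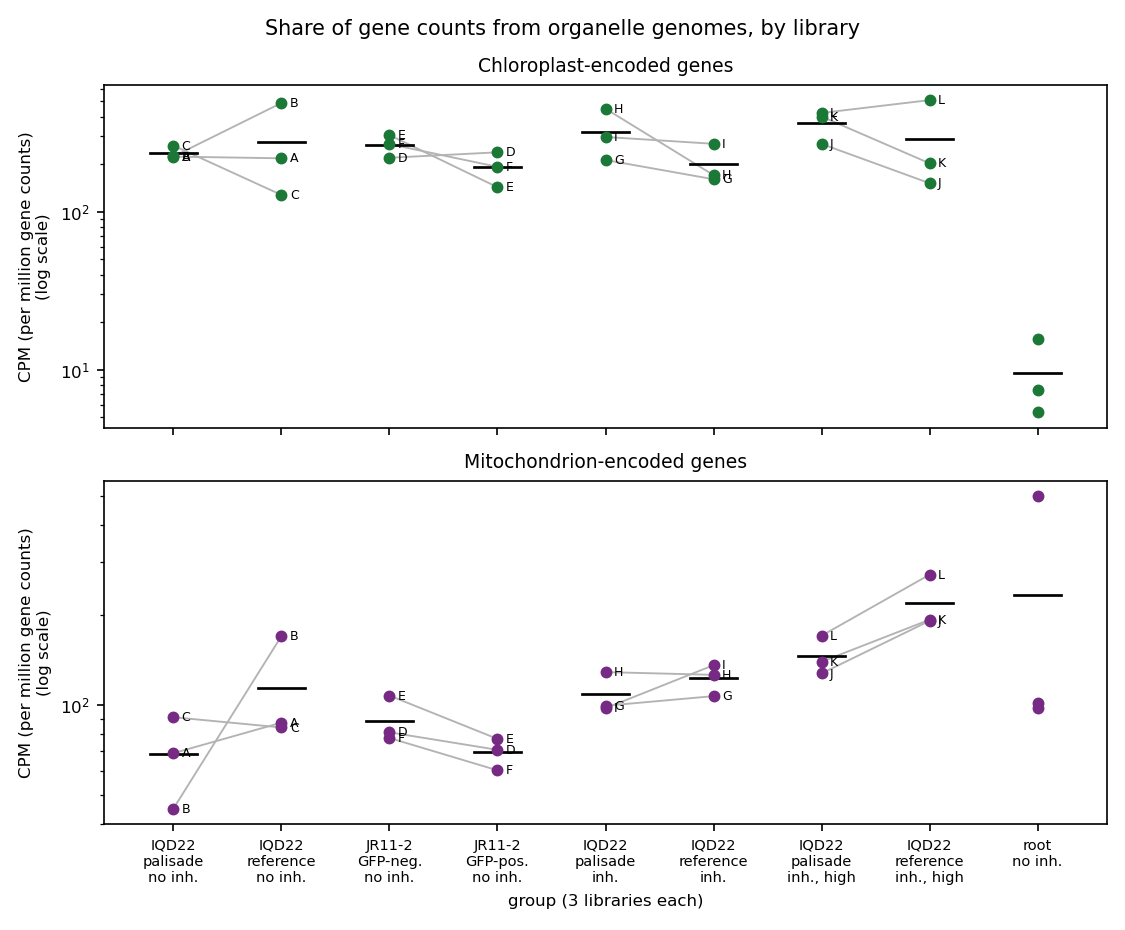
Share of gene counts that fell on chloroplast-encoded (top) and mitochondrion-encoded (bottom) genes, in CPM on a log axis, for the 9 groups of 3 libraries; points are libraries with their pool letter, grey lines join the 2 libraries of a pool and black bars are group means. The 3 root libraries lie at 5.36 to 15.6 for the chloroplast, below all leaf libraries, and for the chloroplast the pool B and L reference libraries lie above the other reference libraries.

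Few members carried most of the counts. The rRNA gene ATMG00020 had the highest mean over the 27 libraries, 73.2 CPM, followed by ATCG00020 with 50.0, ATCG00480 with 35.1, the rRNA gene ATMG01390 with 32.3 and rbcL (ATCG00490, the large subunit of Rubisco) with 21.7. The first 10 members together held 74.8% of the member counts. The rRNA genes ATMG00020 and ATMG01390 together held 77.3% of the mitochondrial counts in leaf and 97.1% in root. At the other end, 47 of the 133 chloroplast and 79 of the 146 mitochondrial members had 0 counts in all 27 libraries. Counts were present in every library for 26 chloroplast and 17 mitochondrial members. All 14 named chloroplast members had counts, whereas 14 of the 28 named mitochondrial members had none, among them apocytochrome b (ATMG00220), a subunit of respiratory complex III.

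Repeated sequence bears on these zeros, since a read that fits several places is not counted. In the TAIR10.1 assembly, which is not the build the authors used, 32 of 129 annotated chloroplast genes had every 50-base window elsewhere in the genome, among them all 7 rRNA genes and 10 of 85 protein-coding genes. For 77 chloroplast genes no window was repeated. Of 43 annotated mitochondrial genes, 24 had every window repeated and 6 had none repeated. These were 33 protein-coding and 10 tRNA genes, so that the rRNA genes ATMG00020 and ATMG01390 were not covered. For 22 mitochondrial genes every window was also present in the nuclear or chloroplast genome. The ribosomal protein gene rpl2 (ATCG01310), which is annotated in 2 copies, had 1 count in all 27 libraries. The nuclear gene AT2G07727, whose note gives apocytochrome b (ATMG00220) as its match, had 184 counts over all libraries. The nuclear gene AT2G07698, matched to mitochondrial ATP synthase subunit 1 (ATMG01190), had 1131 counts against 40 for the mitochondrial gene. For such members the counts cannot tell the organelle gene from its nuclear copy, and a count of 0 does not show that the gene was silent.

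Named chloroplast members could be compared per kilobase of coding length. The epsilon chain of ATP synthase, atpE (ATCG00470), had a leaf median of 19.5 CPM per kilobase, above rbcL with 12.5. The Clp protease subunit clpP (ATCG00670) had 4.71, petB (ATCG00720, cytochrome b6 of the b6f complex) 3.64, atpF (ATCG00130, a membrane subunit of ATP synthase) 3.06 and ndhJ (ATCG00420, of the NADH dehydrogenase-like complex) 2.64. The envelope protein gene cemA (ATCG00530) had 1.60, ndhC (ATCG00440) 1.47 and the ribosomal protein gene rpl20 (ATCG00660) 0.60. The ranges of neighbouring genes in this order overlap over the 24 leaf libraries.

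The members differed widely in how steady they were. Over the 24 leaf libraries, 30 chloroplast members had a mean of at least 1 CPM and a count in every library. Their highest leaf value was 1.98 to 15.7 times their lowest. The steadiest were clpP (ATCG00670), ATCG00480 and atpE (ATCG00470), with coefficients of variation of 18.1%, 18.7% and 20.7%. Counting alone would give 13.0%, 3.56% and 7.84%. By contrast the coefficient was 71.7% for rbcL, 68.6% for the photosystem I gene ATCG00350 and 68.9% for petB, against 4.62%, 5.77% and 13.6% from counting. ATCG00480 ranged from 25.3 to 50.2 CPM in leaf, whereas rbcL ranged from 7.16 to 63.9. Of the 30 members, 12 had their highest leaf value in the pool B reference library, 6 in the pool L reference library and 3 in the pool H palisade library. The 11 mitochondrial members at the same level had a median coefficient of 46.5%, and 6 of them peaked in the pool L reference library.

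**Figure D2:**
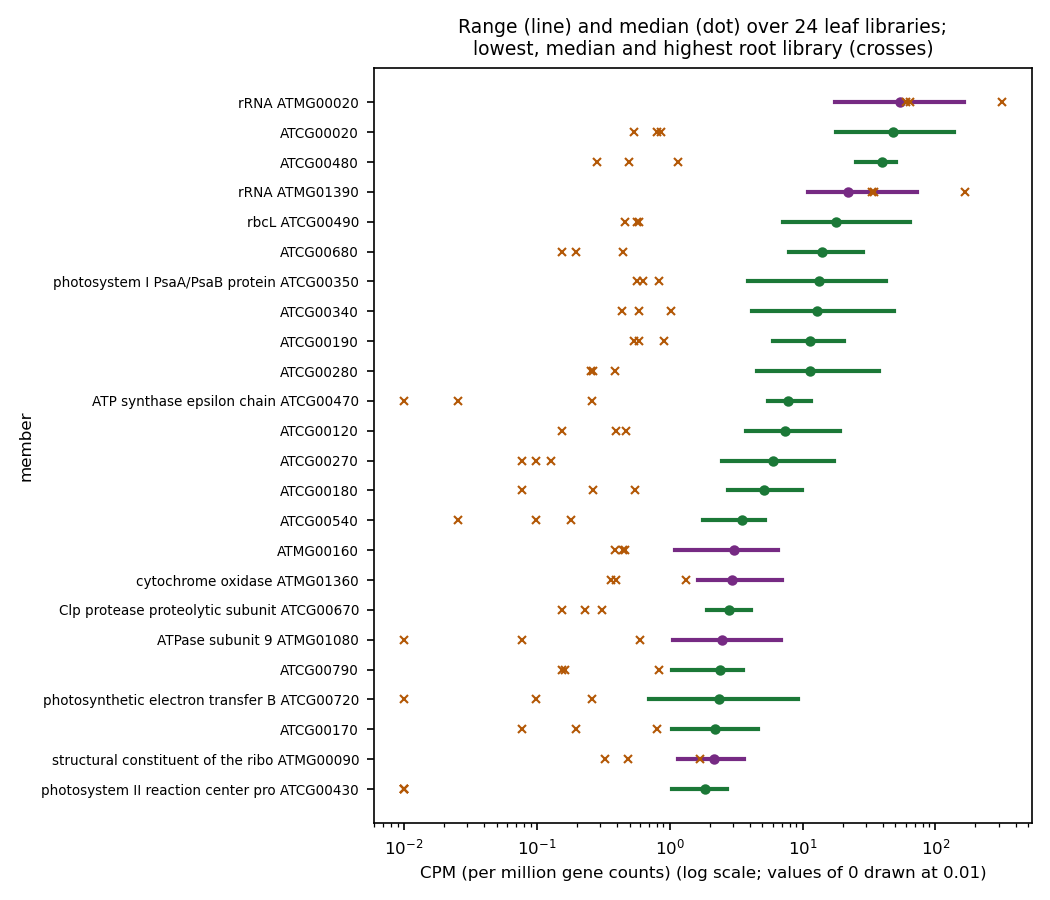
Levels in CPM on a log axis for the 24 members with the highest leaf medians among those with counts in every leaf library; lines span the lowest to the highest of the 24 leaf libraries, dots are leaf medians (green chloroplast, purple mitochondrion) and crosses are the 3 root libraries, with values of 0 drawn at the left edge. ATCG00480 spans 25.3 to 50.2 and rbcL 7.16 to 63.9, and root crosses lie near or above the leaf medians for the mitochondrial rRNA genes.

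The first question was whether palisade cells differ from other green cells. The chloroplast share was higher in palisade than in reference in 7 of 9 IQD22 pools, with a mean log2 ratio of 0.38 (exact sign-flip test over pools, two-sided, p = 0.176, 0.22 adjusted over the 10 share tests). It was higher in 9 of all 12 pools, with a mean log2 ratio of 0.41 (p = 0.0752 by the same exact test, 0.167 adjusted). Pool B had the lowest of the 12 chloroplast log2 ratios, -1.13, so that leaving it out must raise the mean. Without it, an alternative chosen after seeing the data, the log2 ratios were 0.57 over 8 IQD22 pools and 0.55 over 11 pools. A test of pools chosen in this way cannot show a difference. Pool H had the highest chloroplast log2 ratio, 1.40, and no mean was computed without it alone. Without the second replicates, which hold pools B, E, H and K, the mean was 0.36 over the remaining IQD22 pools and 0.32 over all remaining pools. The mitochondrial share went the other way in the IQD22 line. It was lower in palisade in 7 of 9 pools, with a mean log2 ratio of -0.49 (exact sign-flip p = 0.0234, 0.0794 adjusted over the 10 tests), -0.31 without pool B (exact p = 0.0469) and -0.26 without pools B and L (exact p = 0.0938). In JR11-2 it was higher in the GFP-negative library of all 3 pools. Over all 12 pools the mean mitochondrial log2 ratio was -0.28, with 5 pools higher in palisade (exact sign-flip p = 0.146, 0.209 adjusted over the 10 tests). Without the rRNA genes ATMG00020 and ATMG01390 the mean was -0.53 over the 9 IQD22 pools (exact sign-flip p = 0.00391, not adjusted). It was -0.30 over all 12 pools (exact sign-flip p = 0.0552, not adjusted). Markers of other cell types also differed between the sorted populations. The phloem markers SUC2, SWEET11 and SWEET12, which encode sugar transporters, summed to 5.08 to 6.48 CPM in palisade and 18.8 to 34.4 in reference libraries without inhibitors, to 5.91 to 10.7 and 25.9 to 36.2 with them, and to 5.88 to 17.0 and 28.3 to 66.4 at high light. The myrosin cell markers TGG1 and TGG2, which encode myrosinases, summed to 4.72 to 14.0 and 56.6 to 134, to 26 to 117 and 209 to 318, and to 5.02 to 63.3 and 116 to 307 in the same order. In JR11-2 both had the higher median in GFP-negative cells, with 14.6 to 43.4 CPM for phloem and 38.3 to 121 for myrosin cell markers against 11.5 to 22.6 and 28.9 to 74.5 in GFP-positive cells. None of these 5 markers was at 0 in a group, and their part in the organelle values was not tested. In such bulk libraries, fewer cells of a type and less RNA per cell cannot be told apart.

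**Figure D3:**
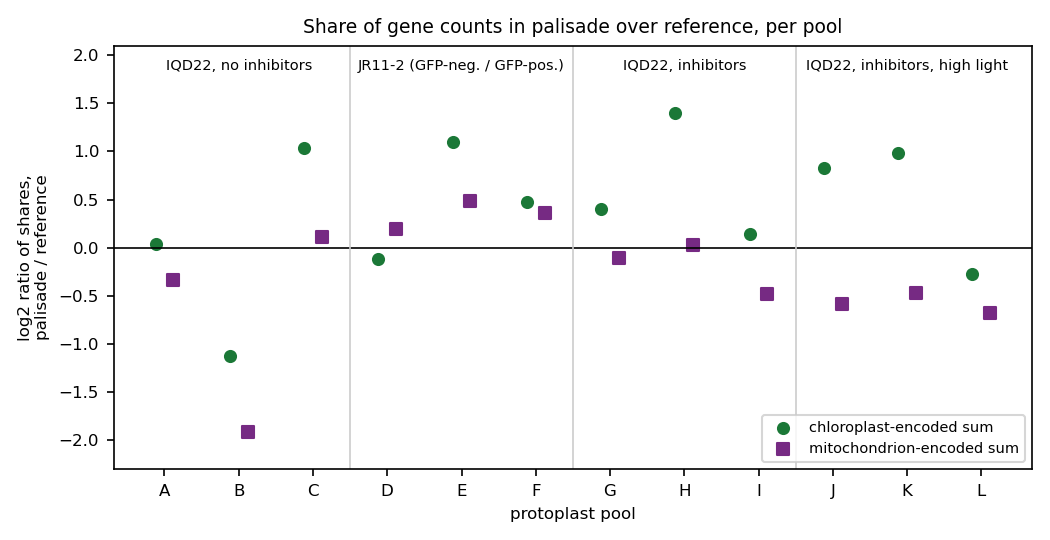
Log2 ratio of the palisade share to the reference share of gene counts in each of the 12 protoplast pools, for the chloroplast-encoded sum (green circles) and the mitochondrion-encoded sum (purple squares); D to F compare GFP-negative with GFP-positive JR11-2 cells. The chloroplast point lies above 0 in 9 pools, and the mitochondrial point lies below 0 in 7 of the 9 IQD22 pools and above 0 in the 3 JR11-2 pools.

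In most pools the majority of chloroplast members went the way of their sum. Among chloroplast members with at least 20 counts in a pool, 38 of 42 were higher in palisade in pool C, 35 of 39 in pool H, 36 of 38 in pool K and 41 of 42 in pool E. In pool B, 9 of 54 were higher in palisade, and in pool L 22 of 44, where the log2 ratio of the sum was -0.27. In pool D, 26 of 43 were higher although the sum was lower, with a log2 ratio of -0.11. Mitochondrial members were higher in palisade for 1 of 18 in pool L up to 6 of 17 in pool C over the IQD22 pools, and for 12 of 15, 17 of 20 and 11 of 14 in the JR11-2 pools D, E and F. Over nuclear genes with as many counts, 26.1% to 47.7% were higher in palisade in the IQD22 pools and 43.3% to 50.2% in the JR11-2 pools, and in pool H the mitochondrial value of 33.3% lay above the nuclear one of 27.4%.

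Without inhibitors, IQD22 palisade and reference libraries differed in 12 of 104 members tested. Tests here and below were made with edgeR (quasi-likelihood F), and FDR is the Benjamini-Hochberg adjusted p over all genes tested, called below 0.05. Of 68 chloroplast members, 7 were higher and 2 lower in palisade, and of 36 mitochondrial members 3 were lower, against 17.4% of all genes higher and 17.1% lower. The median log2 fold change (log2 FC) was 0.09 for chloroplast and -0.31 for mitochondrial members, against -0.0031 for all genes. ATCG00190 had the smallest FDR, with a log2 FC of 1.03 (SE 0.11, FDR 2.57e-06). atpE (ATCG00470) had 9.52, 9.65 and 7.08 CPM in palisade pools A to C and 6.49, 8.95 and 5.5 in reference. It was higher in palisade in each pool, although the groups overlap, with a log2 FC of 0.41 (SE 0.13, FDR 0.0186).

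rbcL (ATCG00490) shows how far pool B carried these values. It had 11.5, 10.6 and 19.2 CPM in palisade pools A to C and 17.0, 51.4 and 7.16 in reference, so that the reference libraries span the palisade ones. Its log2 FC was -0.46 (SE 0.41, FDR 0.432) and turned to 0.48 without pool B. The same held for petB (ATCG00720), the photosystem I gene ATCG00350 and ATCG00020, whose log2 FCs were -0.18, -0.49 and -0.27 with pool B and 1.04, 0.39 and 0.49 without it. Without pool B, 27 of 93 members tested were called, all of them higher in palisade and 6 of them also among the 12. The low-count member ATCG00950, lower in palisade with a log2 FC of -3.17 (FDR 0.0138), rested on the pool B reference library, which had 2.64 CPM against at most 0.112 in the other 5 libraries. Without pool C, 26 of 97 members tested were called, 7 higher and 19 lower. The share of all genes called in these refits is not given, so that the counts do not set the members apart. Without the pool as a block, 2 members were called, ATCG00160 and ATCG00190, and DESeq2 called 4, all higher in palisade.

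Mitochondrial members that passed the test without inhibitors were lower in palisade. The rRNA gene ATMG01390 had 14.2, 11 and 18.3 CPM in palisade and 20.8, 72.5 and 18.7 in reference pools A to C. All reference values lay above the palisade ones, but only slightly in pool C, and the log2 FC was -1.01 (SE 0.33, FDR 0.0246). ATMG01360, noted as cytochrome oxidase, the last complex of the respiratory chain, had 2.30, 1.63 and 2.25 in palisade and 3.45, 2.41 and 3.21 in reference, which do not overlap, and a log2 FC of -0.48 (SE 0.18, FDR 0.0479). Both calls were lost without the pool as a block, and without pool B the log2 FC of ATMG01390 was -0.21 and did not pass. Neither rRNA gene ATMG00020 (-0.58, FDR 0.12) nor ATPase subunit 9 ATMG01080 (-0.45, FDR 0.204) passed the test.

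In JR11-2, 13 of 105 members were higher in cells without GFP than in those with it and none was lower, against 9.6% of all genes higher and 10.1% lower. They were 9 of 70 chloroplast and 4 of 35 mitochondrial members, and the medians were 0.54 and 0.37. atpE (ATCG00470) had 9.33, 11.6 and 10.8 CPM in GFP-negative and 7.82, 5.59 and 6.48 in GFP-positive cells, groups that do not overlap, and its log2 FC was 0.69 (SE 0.13, FDR 0.000645). atpF (ATCG00130) had a log2 FC of 0.89 (SE 0.28, FDR 0.0259). Both mitochondrial rRNA genes were higher in each pool, ATMG00020 by 0.35 (SE 0.07, FDR 0.000948) and ATMG01390 by 0.34 (SE 0.09, FDR 0.00642) on the log2 scale. rbcL (ATCG00490) did not pass the test, with 11.5, 16.3 and 21.2 CPM in GFP-negative and 20.5, 8.89 and 14.8 in GFP-positive cells. Without the pool as a block no member was called by edgeR, with 15 at an unadjusted p below 0.05, and DESeq2 called 4 members. Leaving out pool D, E or F gave 20, 6 and 21 members, all higher in GFP-negative cells.

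With inhibitors and low light, 17 of 65 chloroplast members were higher in palisade and none was lower, and 0 of 29 mitochondrial members passed the test, against 15.1% of all genes higher and 14.9% lower. The medians were 0.71 for chloroplast and -0.31 for mitochondrial members, against -0.03 for all genes. rbcL (ATCG00490) had 19.0, 63.9 and 31.9 CPM in palisade pools G to I and 8.32, 12 and 25.6 in reference. It was higher in palisade in each pool, and the groups overlap because of the reference library of pool I. Its log2 FC was 1.5 (SE 0.24, FDR 6.83e-05). The photosystem I gene ATCG00350 had 1.13 (SE 0.26, FDR 0.00207) and atpF (ATCG00130) 0.89 (SE 0.28, FDR 0.0213). atpE (ATCG00470), with a log2 FC of 0.28 (SE 0.15, FDR 0.179), did not pass, and ATCG00480 differed by 0.32 (SE 0.09, FDR 0.0101).

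Here too the calls rested on the pairing and on pool H. With the pool block removed, 1 member was called, ATCG00120, and without pool H 6 members were called. DESeq2 called 6. When libraries were scaled to plain gene counts instead of TMM, which moved the median of all genes to -0.25, 11 members were higher and 4 lower. Nuclear rRNA moved with the chloroplast values in pool H, with 88.3 CPM of AT3G41768 in palisade and 41.0 in reference. Its part in the difference was not tested.

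At high light with inhibitors, the chloroplast members called were all higher in palisade and the mitochondrial members called all lower. Of 66 chloroplast members, 16 were higher and none lower in palisade, and of 32 mitochondrial members none was higher and 7 lower, against 18.1% of all genes higher and 18.8% lower. The medians were 0.56 and -0.54, and at low light with inhibitors they had the same signs, 0.71 and -0.31. rbcL (ATCG00490) had 28.5, 46.4 and 57.8 CPM in palisade pools J to L and 9.23, 16.0 and 55.6 in reference, and its log2 FC was 1.11 (SE 0.16, FDR 1.09e-06). The palisade value was higher in each pool, least so in pool L, whose reference library stood apart. ATCG00430 had a log2 FC of 0.97 (SE 0.27, FDR 0.00447), petB (ATCG00720) 0.71 (SE 0.28, FDR 0.0465) and ATCG00350 of photosystem I 0.65 (SE 0.20, FDR 0.00935). ATCG00430 is noted as photosystem II reaction center protein G, but TAIR10.1 lists no chloroplast gene psbG. Between ndhJ (ATCG00420) and ndhC (ATCG00440) it lists ndhK, of the NADH dehydrogenase-like complex.

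The lower members were all mitochondrial. ATMG01080, noted as ATPase subunit 9, the ring subunit of the mitochondrial ATP synthase, had 2.91, 2.68 and 3.40 CPM in palisade and 5.62, 5.25 and 6.86 in reference, groups that do not overlap. Its log2 FC was -0.83 (SE 0.17, FDR 0.000302). Cytochrome oxidase ATMG01360 had 2.72, 2.80 and 3.28 in palisade and 4.30, 5.84 and 6.97 in reference, a log2 FC of -0.80 (SE 0.18, FDR 0.000625). Cytochrome c oxidase subunit 3 (ATMG00730) had -1.17 (SE 0.38, FDR 0.0162), rRNA ATMG01390 -0.66 (SE 0.08, FDR 1.69e-07) and rRNA ATMG00020 -0.29 (SE 0.07, FDR 0.000726). Without ATMG01390 and ATMG00020 the mitochondrial sum was 21.6 to 29.3 CPM in palisade and 37.9 to 51.7 in reference. Both populations were compared on counts of the whole library, and plain gene-count scaling instead of TMM changed the split from 16 higher and 7 lower to 5 higher and 11 lower. Without the block 8 members were called, among them ATMG01080, ATMG01360, ATMG00730 and ATMG01390, and DESeq2 called 8. Without pool K, 11 members were called, 6 higher and 5 lower.

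**Figure D4:**
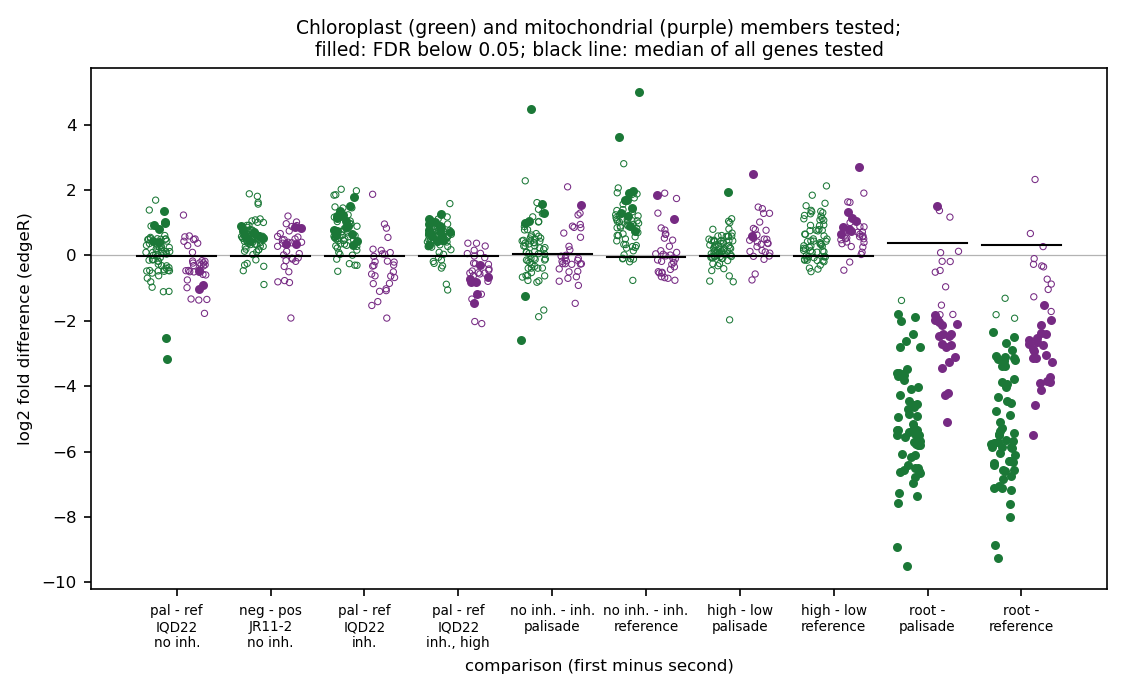
Log2 fold difference of every member tested (edgeR) in 10 comparisons, first group minus second, with chloroplast members in green and mitochondrial members in purple; filled points have an FDR below 0.05 and black lines are the median of all genes tested. At high light 16 filled chloroplast points lie above 0 and 7 filled mitochondrial points below, and in root 58 of 59 and 56 of 59 chloroplast points are filled below 0.

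The next comparison asked what transcription inhibitors during protoplasting changed, here as levels without inhibitors minus levels with them. The chloroplast log2 ratio over pool means was -0.04 (exact permutation test, two-sided, p = 0.9, where 3 against 3 pools cannot go below 0.1). It was -0.28 without pool B and -0.19 to 0.26 with each replicate left out, so that its sign was not fixed. The mitochondrial share was lower without inhibitors in each of the 9 pairs of pools, with a log2 ratio of -0.45 (exact p = 0.1, the smallest possible, 0.167 adjusted). It was -0.48 without pool B, and -0.19 without the rRNA genes ATMG00020 and ATMG01390. Read classes moved with this contrast. Reads in no annotated gene were 1.49% to 2.71% of the reads listed without inhibitors and 0.656% to 0.839% with them, and reads with several alignments 5.21% to 7.46% and 7.34% to 9.26%. Their part in the difference was not tested.

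In palisade cells, 5 of 68 chloroplast members were higher and 2 lower without inhibitors, and 1 of 32 mitochondrial members was higher, against 24.5% of all genes higher and 11.7% lower. rbcL (ATCG00490) was lower, with 11.5, 10.6 and 19.2 CPM without inhibitors against 19.0, 63.9 and 31.9 with them, groups that overlap slightly, and a log2 FC of -1.25 (SE 0.40, FDR 0.0317). ATMG00160 had 5.62, 3.54 and 4.42 CPM without inhibitors and 1.92, 1.72 and 1.92 with them, groups that do not overlap, and a log2 FC of 1.54 (SE 0.27, FDR 0.00117). In reference cells, 11 of 64 chloroplast and 2 of 34 mitochondrial members were higher without inhibitors and none was lower, against 27.1% of all genes higher and 23.3% lower. petB (ATCG00720) had a log2 FC of 1.98 (SE 0.65, FDR 0.027), ATCG00350 of photosystem I 1.70 (SE 0.59, FDR 0.0342) and clpP (ATCG00670) 0.76 (SE 0.25, FDR 0.03). In palisade cells 5 members were called without the second replicates, pools B and H, all higher, so that rbcL was no longer among them. In reference cells 7 were called without the first replicates, 1 without the second and 27 without the third. The 1 was mitochondrial, so that petB, ATCG00350 and clpP did not pass without pools B and H.

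The split of these calls turned on scaling. With plain gene-count scaling, under which all genes had a median of -0.21 in palisade and -0.44 in reference cells, 4 members were higher and 6 lower in palisade and 3 higher and 5 lower in reference cells. Upper-quartile scaling gave 4 higher and 11 lower, and 6 higher and 3 lower. Under TMM the split was 6 higher and 2 lower, and 13 higher and none lower.

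The inhibitor response itself was compared between both populations as an interaction over 12 libraries. Of 111 members tested, 3 had a lower response in palisade and none a higher one, against 4.28% of all genes lower and 0.33% higher. They were rbcL (ATCG00490) with a log2 difference of -2.07 (SE 0.53, FDR 0.0200), ATCG00020 with -1.74 (SE 0.47, FDR 0.0275) and the low-count ATCG00950 with -4.99 (SE 1.31, FDR 0.023). Without the first replicates, pools A and G, edgeR called no member, with 13 at an unadjusted p below 0.05, and without the third replicates, pools C and I, it called 14, all lower. Without the second replicates, pools B and H, it called none, with 4 at an unadjusted p below 0.05, and ATCG00950 went to 0.02. Without the pool block edgeR called none, with 15 at an unadjusted p below 0.05, and DESeq2 called none either, with 3 at an unadjusted p below 0.05.

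High light was compared with low light in cells treated with inhibitors. The chloroplast share had a log2 ratio of 0.29 over pool means (exact permutation test, two-sided, p = 0.4). It was -0.02 without pool L. The mitochondrial share was higher at high light in each of the 9 pairs of pools, with a log2 ratio of 0.62 (exact permutation p = 0.1, the smallest 3 against 3 can give, 0.167 adjusted), and 0.48 without pool L. Reads with several alignments were 5.47% to 7.06% at high light against 7.34% to 9.26% at low light, and their part in the difference was not tested.

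In palisade cells 3 members were higher at high light and none was lower, 1 of 67 chloroplast and 2 of 29 mitochondrial members, against 19% of all genes higher and 16.4% lower. They were rRNA ATMG00020 with a log2 FC of 0.58 (SE 0.17, FDR 0.0203), ATMG01090, also noted as ATPase subunit 9, with 2.49 (SE 0.74, FDR 0.0204), and ATCG01130, noted as Ycf1 protein, of the chloroplast, with 1.95 (SE 0.71, FDR 0.0498). Without the third replicates none of them was called by edgeR, with 1 member at an unadjusted p below 0.05, and DESeq2 called 2. In reference cells 8 of 35 mitochondrial members were higher, none was lower and 0 of 64 chloroplast members passed the test, against 21.6% of all genes higher and 20.5% lower. The mitochondrial median was 0.64 and the chloroplast median 0.41.

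By annotated name, these 8 held the rRNA genes ATMG00020 and ATMG01390. They also held 1 of 2 tested members noted for respiratory complex IV and 1 of 3 noted for ATP synthase. Members given by identifier only could not be placed, so that these fractions do not cover each complex. Cytochrome oxidase ATMG01360 went from 3.59, 3.61 and 3.73 CPM at low light to 4.30, 5.84 and 6.97 at high light in reference cells, a log2 FC of 0.74 (SE 0.20, FDR 0.0118). ATPase subunit 9 ATMG01080 went from 3.22, 3.61 and 4.10 to 5.62, 5.25 and 6.86, a log2 FC of 0.79 (SE 0.19, FDR 0.00667). The groups do not overlap for either gene. rRNA ATMG00020 went from 54.2, 70.0 and 74.6 to 114, 106 and 163 in reference cells (log2 FC 1.04, SE 0.17, FDR 0.000615) and from 53.1, 77.9 and 59.8 to 84.1, 84.0 and 112 in palisade cells. rRNA ATMG01390 went from 22.4, 29.1 and 29.4 to 39.2, 41.0 and 58.0 in reference cells (0.86, SE 0.16, FDR 0.00146), whereas palisade cells had 24.8, 30.5 and 17.1 at low and 21.6, 27.3 and 29 at high light (0.12, FDR 0.686). Without the third replicates, pools I and L, 3 members were called in reference cells, and neither ATMG01360 nor ATMG01080 passed. ATMG01360 did not pass without the second replicates either.

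The difference between these responses was tested as an interaction over 12 libraries. Of 109 members, 2 had a lower response in palisade than in reference cells and none a higher one, against 3.54% of all genes lower and 1.79% higher. They were both mitochondrial rRNA genes, ATMG01390 with a log2 difference of -0.73 (SE 0.17, FDR 0.0078) and ATMG00020 with -0.46 (SE 0.12, FDR 0.015). Cytochrome oxidase ATMG01360, with -0.63 (SE 0.28, FDR 0.251), and ATMG01080, with -0.17 (SE 0.32, FDR 0.884), did not pass. Without the pool block, or without the second replicates, edgeR called neither, with 5 and 3 members at an unadjusted p below 0.05. Without the first replicates it called 8, all lower.

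**Figure D5:**
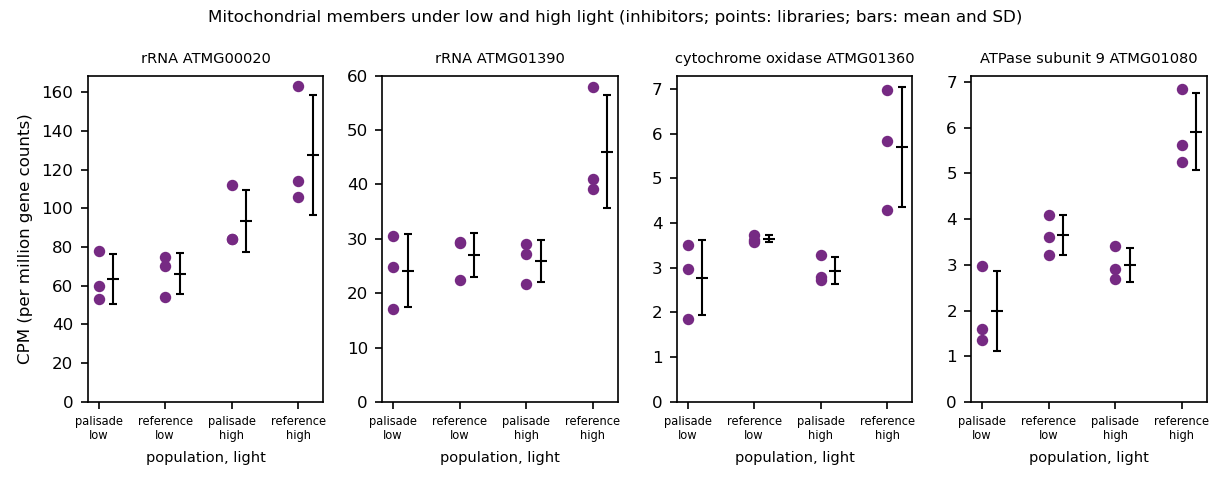
Levels in CPM of 4 mitochondrial members in IQD22 palisade and reference cells treated with inhibitors, at low and high light; points are the 3 libraries of a group and bars the mean with SD. Cytochrome oxidase ATMG01360 and ATPase subunit 9 ATMG01080 reach 4.30 to 6.97 and 5.25 to 6.86 in reference cells at high light, above the other groups.

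The last comparison set root against leaf protoplasts. The chloroplast share in root was 0.0372 times that in leaf (log2 ratio -4.75, lower in all 18 pairs, exact permutation test over 3 root libraries and 6 leaf pools without inhibitors, two-sided, p = 0.0238, the smallest possible, 0.0794 adjusted). Against IQD22 palisade cells 58 of 59 chloroplast members were lower in root, and against reference cells 56 of 59, with none higher in either, against 32.6% and 33.5% of all genes lower and 45% and 44.4% higher. The medians were -5.33 and -5.50, against 0.38 and 0.31 for all genes. rbcL (ATCG00490) had 0.59, 0.46 and 0.57 CPM in root, and its log2 FCs were -5.55 and -6.29 (SE 0.33 and 0.64, FDR 3.11e-09 and 1.5e-06). atpE (ATCG00470) had 0, 0.0258 and 0.261 CPM in root against 5.5 to 11.6 in leaf.

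Most chloroplast genes seen in leaf were scarce or absent from root counts. Of the chloroplast members, 28 had counts in leaf and none in root. This set 24 leaf libraries against 3 root libraries, and 14 chloroplast members had only 1 to 26 counts over all libraries. The share of all genes seen only in leaf is not given, so that the count alone does not set these members apart. ATCG00430 had 1.04 to 2.68 CPM in leaf and ndhJ (ATCG00420) 0.70 to 2.03, and both had 0 counts in the 3 root libraries. Set against a floor of 3 counts over these libraries together, 0.0279 CPM, the leaf median was at least 66.3-fold higher for ATCG00430 and at least 45.1-fold higher for ndhJ. Named members were lower in root in 12 of 13 cases in both comparisons. The exception was ATCG01130, noted as Ycf1 protein, with log2 FCs of -1.38 (FDR 0.0833) and -1.31 (FDR 0.201).

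Mitochondrial members split by kind. The mitochondrial share in root was 2.11 times that in leaf (log2 ratio 1.07, higher in 18 of 18 pairs, exact permutation p = 0.0238, the smallest possible, 0.0794 adjusted). It turned to a log2 ratio of -2.02 without the rRNA genes ATMG00020 and ATMG01390 (exact permutation p = 0.0238). Without root library 3 the log2 ratio was 0.30 with rRNA included (exact p = 0.0714). Without both of these rRNA genes the mitochondrial sum was 3.35, 3.82 and 13.1 CPM in root and 16.3 to 51.7 in leaf. Against palisade cells 19 of 32 mitochondrial members were lower and 1 higher in root, where 32.6% of all genes were lower and 45% higher. Against reference cells 23 of 35 were lower and none higher, where 33.5% of all genes were lower and 44.4% higher. Over both genomes 78 and 79 members were called, and 49 of 56 tested were called against palisade cells without the third replicates and 50 of 69 against reference cells without the second. The share of all genes called in these refits is not given. Cytochrome oxidase ATMG01360 had 0.396, 0.361 and 1.33 CPM in root, below every leaf library, and log2 FCs of -2.46 (SE 0.46, FDR 0.000267) and -2.92 (SE 0.44, FDR 5.9e-05). ATPase subunit 9 ATMG01080 had -3.44 (SE 0.70, FDR 0.000506) and -3.90 (SE 0.71, FDR 0.000253).

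The rRNA gene ATMG01390 was the member higher in root than in palisade cells, with 33.5, 34.2 and 168 CPM in root and 14.2, 11 and 18.3 in palisade, and a log2 FC of 1.51 (SE 0.49, FDR 0.0123). ATMG00020 had 64.2, 60.0 and 317 CPM in root, and its log2 FC of 1.17 did not pass (SE 0.54, FDR 0.0605). Against reference cells both had small positive values, 0.27 and 0.67, which turned to -1.18 and -0.63 without the third replicates, those of root library 3 and pool C. Root library 3 also had the highest level of the nuclear rRNA gene AT3G41768, as given above, and 9.75% of its reads aligned to more than 1 place. Their part in the rRNA values was not tested.

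Nuclear genes that serve organelle transcription and RNA turnover were followed as partners of the members, in a list of 26: 6 sigma factors, 3 phage-type polymerases, 12 proteins associated with the chloroplast polymerase and 5 RNases. Of the 26, 22 were higher and none lower in IQD22 palisade cells without inhibitors, 12 in JR11-2 GFP-negative cells, 17 with inhibitors at low light and 22 at high light, against 17.4%, 9.6%, 15.1% and 18.1% of all genes higher. All 6 sigma factors were higher without inhibitors and at high light. SIG2 (AT1G08540) had 81.8, 108 and 98.0 CPM in palisade and 46.6, 62.7 and 60.3 in reference pools A to C, groups that do not overlap, and a log2 FC of 0.84 (SE 0.08, FDR 9.22e-07). SCA3 (AT2G24120), a phage-type polymerase of the chloroplast, had 0.73 (SE 0.10, FDR 1.87e-05).

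At high light SIG5 (AT5G24120), a sigma factor known to be induced by light and stress, went from 143, 162 and 134 to 1034, 879 and 907 CPM in palisade cells. In reference cells it went from 122, 132 and 119 to 725, 684 and 647, and the groups do not overlap in either population. Its log2 FCs were 2.72 (SE 0.17, FDR 3.42e-07) and 2.56 (SE 0.13, FDR 8.89e-08). Over the list, 5 were higher and 5 lower in palisade and 3 higher and 11 lower in reference cells at high light, against 19% and 16.4% of all genes in palisade and 21.6% and 20.5% in reference cells. All 5 lower genes in palisade cells and 8 of the 11 in reference cells were polymerase-associated proteins. SCA3 had a higher light response in palisade than in reference cells, by a log2 difference of 0.45 (SE 0.13, FDR 0.0264), and it was the 1 of 26 that passed this interaction, against 1.79% of all genes higher. Without inhibitors compared with inhibitors, 6 of the 26 were lower in palisade and 18 in reference cells, and none was higher, against 11.7% and 23.3% of all genes lower.

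In root, 23 of the 26 partners were lower and 1 higher against both leaf populations, where 32.6% and 33.5% of all genes were lower and 45% and 44.4% higher. All 6 sigma factors and all 12 polymerase-associated proteins were lower. SIG1 (AT1G64860) had 6.82, 5.70 and 5.97 CPM in root and 98.2 to 263 in leaf, with log2 FCs of -5.87 (SE 0.23, FDR 9.11e-11) and -5.30 (SE 0.21, FDR 3.39e-10). The phage-type polymerases MGP3 (AT1G68990) and AT5G15700 did not pass, with log2 FCs of -0.15 and 0.60 against palisade cells (FDR 0.658 and 0.117) and 0.27 and 0.68 against reference cells (FDR 0.443 and 0.0809). The RNase gene AT5G14580 was the partner higher in root, by 2.26 (SE 0.39, FDR 0.000125) and 2.15 (SE 0.38, FDR 0.000193) on the log2 scale.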

How the data were processed

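RNA was sequenced from 24 sorted leaf and 3 root protoplast samples. The authors aligned single-end 50-base reads from a stranded poly(A) kit to TAIR10 with TopHat2 2.0.9 after CASAVA 1.8.2, counted them per gene with HTSeq 0.6.1 in intersection-strict mode, and deposited unnormalized counts. Reads with several alignments were not counted, which lowers counts of repeated genes. The study's own tests left out organelle genes, and here they were kept.

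Each comparison used its 6 libraries, and each interaction 12. Genes that reached 2 counts in 3 or more libraries were scaled by TMM and tested with edgeR 4.0.16 (R 4.3.3, quasi-likelihood test, Benjamini-Hochberg over all genes tested). Pool was a blocking factor in comparisons of palisade with reference and in the interactions. In the 4 palisade to reference comparisons, libraries of a pool deviated together from their group means across genes (r from 0.239 to 0.717 over all genes, and from -0.164 to 0.537 over the members alone). The pairing was taken from the replicate numbers in the sample titles, which name no pool. The study states that populations sorted from the same protoplast pool were paired where possible. The standard error is the log2 fold change divided by the square root of F. Shares were tested by exact permutation over pools or root libraries, in a family of 10 tests. The edgeR procedure was tested on simulated counts. Windows of 50 bases and coding lengths came from TAIR10.1.

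Named members are those that passed the test with the same sign in every pool or without overlap (4 with the largest change in each direction), fixed photosynthesis and respiration genes where an annotation names them, and the 10 most abundant over all libraries and over root. Other annotated members were named for their role, and of members with no annotated name only a few are given. One named member is not reported here. The members, the partner list and the marker lists were chosen with earlier results of these data known. Alternatives were DESeq2 1.42.0, upper-quartile, plain and nuclear-only scaling, no filter, at least 10 counts in every library, the block removed or added, other denominators, rRNA left out and each replicate left out. Leaving out pools B and L or root library 3 was chosen after seeing the data. The sum of guard cell markers in leaf reached 1.01 CPM. Replicates are separate pools of leaves. For root nothing says whether libraries came from separate cultures, so that p-values may measure technical spread there.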

Additional observations from a re-analysis of the deposited data

Results flagged for a closer look

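Of the members, 2 of 109 passed the test of a lower light response and 3 of 111 that of a lower inhibitor response in palisade cells, against 3.54% and 4.28% of all genes. The light response of both mitochondrial rRNA genes was smaller in palisade cells than in reference cells, with log2 differences of -0.46 (ATMG00020) and -0.73 (ATMG01390) in the interaction test. The inhibitor response was lower in palisade cells, with log2 differences of -1.74 for ATCG00020, -2.07 for rbcL (ATCG00490) and -4.99 for the low-count ATCG00950. By edgeR neither set of calls held without the pool block or without the second replicates, and the inhibitor calls were also lost without the first replicates and with DESeq2. ATCG00950 went to 0.02 without the second replicates.

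In other pairs of comparisons the members went opposite ways in every pool, and these differences were not tested. The palisade to reference difference of rRNA ATMG01390 was lower in IQD22 without inhibitors than in JR11-2, with a gap of -1.36 on the log2 scale. This rested on pool B, without which the IQD22 value went from -1.01 to -0.21. Between JR11-2 and IQD22 at high light, the differences of ATMG00020 and ATMG01390 were 0.64 and 1.01 apart. The mitochondrial share did the same, with a gap of -0.92 between IQD22 at high light and JR11-2.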

How the results depend on the processing

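Of 2211 recomputed log2 fold changes of named members, 1923 stayed on their side of the threshold without a reversal of a called value, 183 no longer passed, 95 newly passed and 10 reversed. Among the 1923, 65 changed sign without passing in either setting. The cause of these changes was not tested. In the order palisade minus reference in IQD22 without inhibitors, JR11-2, IQD22 with inhibitors and IQD22 at high light, the members called were 12, 13, 17 and 23. With no replicate block, that is without the pool pairing, they were 2, 0, 1 and 8, and with DESeq2 4, 4, 6 and 8. With each replicate left out they ranged from 9 to 27, 6 to 21, 6 to 20 and 11 to 24, and in JR11-2 there were 21 with no filter on low counts. For the inhibitor comparison in palisade and reference cells (8 and 13 called), at least 10 counts in every library gave 4 and 8, upper-quartile scaling gave 15 in palisade, plain gene-count scaling gave 8 in reference, and leaving out replicates gave 5 to 8 and 1 to 27. For light (3 and 8 called), leaving out replicates gave 0 to 3 and 3 to 10, at least 10 counts gave 1 in palisade, and adding a replicate block, although these groups share numbers and not pools, gave 15 in reference. Against root (78 and 79 called), at least 10 counts gave 10 and 9, since few members reach it in root, and leaving out replicates gave 49 to 56 and 50 to 58. The light interaction (2 called) gave 1 with DESeq2, 1 with plain scaling, 5 with no filter, 0 with no replicate block and 0 to 8 with replicates left out. The inhibitor interaction (3 called) gave 0 with DESeq2, 12 with no filter, 0 with at least 10 counts, 0 with no replicate block and 0 to 14 with replicates left out. Scaling by nuclear genes alone changed no count of calls in these 12 comparisons by over 1.5 times. For these alternatives the share of all genes called is not given, so the counts show only how the member calls depend on the setting.

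Of the shares, the chloroplast log2 ratio of palisade to reference was 0.57 without pool B and 0.69 without pools B and L over the IQD22 pools, and 0.55 and 0.63 over all pools. Pools B and L had the lowest values of all pools, so that leaving them out must raise this ratio. Pool H had the highest value, 1.40, and the ratio without it alone was not computed. For root the chloroplast log2 ratio was -5.19 without root library 3 and -5.27 to -4.32 with replicates left out. The mitochondrial log2 ratio of palisade to reference was -0.26 without pools B and L and -0.57 to -0.35 with replicates left out. Over the IQD22 pools it was -0.63 without the most abundant member and -0.53 without the rRNA genes ATMG00020 and ATMG01390. The mitochondrial inhibitor ratio was -0.20 without the most abundant member and -0.19 without the rRNA genes ATMG00020 and ATMG01390. The mitochondrial root ratio was 0.57 without the most abundant member, -2.02 without both of these rRNA genes and 0.30 without root library 3. With replicates left out its root ratio was 0.27 to 1.55, where fewer samples raise the smallest p the test can reach. With replicates left out, log2 fold changes between IQD22 palisade and reference cells without inhibitors ranged from -1.36 to 0.48 for ATCG00490, -0.95 to 1.04 for ATCG00720, -1.28 to 0.39 for ATCG00350, -1.02 to 0.49 for ATCG00020, -1.41 to 0.41 for ATCG00340, -0.67 to 0.51 for ATCG00680 and -0.83 to 0.49 for ATCG00280. For root minus reference cells they ranged from -0.63 to 1.24 for ATMG00020 and -1.18 to 1.43 for ATMG01390, and for the inhibitor interaction from -7.51 to 0.02 for ATCG00950. Depth limits the members near 0.1 CPM, where a library holds a few counts.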
